A study of Homo sapiens with 10 samples.

Results

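The step from 6 to 12 h of dibutyryl cAMP in DBTRG-05MG cells was described from 2 of the 10 libraries of the series, those taken at 6 h and at 12 h. DBTRG-05MG and U87 are established human glioblastoma lines, and poly(A) RNA of each was sequenced at 0, 6, 12, 24 and 48 h of 1 mM dibutyryl cAMP (dbcAMP), a cell-permeable form of cyclic AMP. Each line and time was 1 library, so no difference has a replicate check, no test was possible and every statement gives sizes only. The 0 h library is the only untreated one of each line, so time in culture and treatment cannot be told apart. Dose and times were taken from the labels; the text on the whole series names a different dose unit and more days of treatment. Levels are FPKM, fragments scaled by transcript length and by library size, a unit inferred from the values. A change is log2((FPKM + 1) ratio), which understates the change of genes at low levels. Of 20379 genes in the deposited table, 12424 had a mean of at least 1 FPKM over the 5 DBTRG-05MG libraries and were described.

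Cyclic AMP activates protein kinase A, which phosphorylates the transcription factor CREB. CREB bound to cAMP response elements turns on immediate-early genes, and several of these code for products that limit the signal, among them phosphodiesterases that hydrolyse cAMP, the repressor CREM and the MAP kinase phosphatase DUSP1. Protein kinase A also acts on actin and on the Hippo pathway, whose coactivator YAP works with TEAD factors at genes such as CTGF, CYR61 and ANKRD1. Genes that change late can depend on proteins made during the first hours, so the step after 6 h separates responses by their timing.

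Between 6 and 12 h, 152 genes were at least 2-fold higher (1.22% of the genes described) and 99 were at least 2-fold lower (0.797%), together 251 (2.02%). The genes with the largest falls included the YAP targets CTGF, ANKRD1 and CYR61, and the chemokine CCL2. Those with the largest rises included the stress-response genes DDIT4 and CEBPB, the keratin KRT81 and several genes for small subunits of larger complexes. Among early cAMP-responsive genes, IL11 and DUSP1 moved little. The median step of all genes was 0.09 (quartiles -0.15 and 0.31), with 7443 genes higher and 4969 lower. When each library was centred on its own median, which moves the median step by about 0.11 to -0.02, the split of 2-fold calls was 102 higher and 144 lower. That centring put DDIT3 (0.90) and NEK2 (0.92) under the 2-fold line and AMOTL2 (-1.06) and KCNH1 (-1.10) past it. The nearest genes on either side of the 2-fold line were COX7A2 (1.0021) inside and MT1L (0.9949) outside among higher genes, and EGFR (-1.0073) inside and NXN (-0.9998) outside among lower ones.

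**Figure D1:**
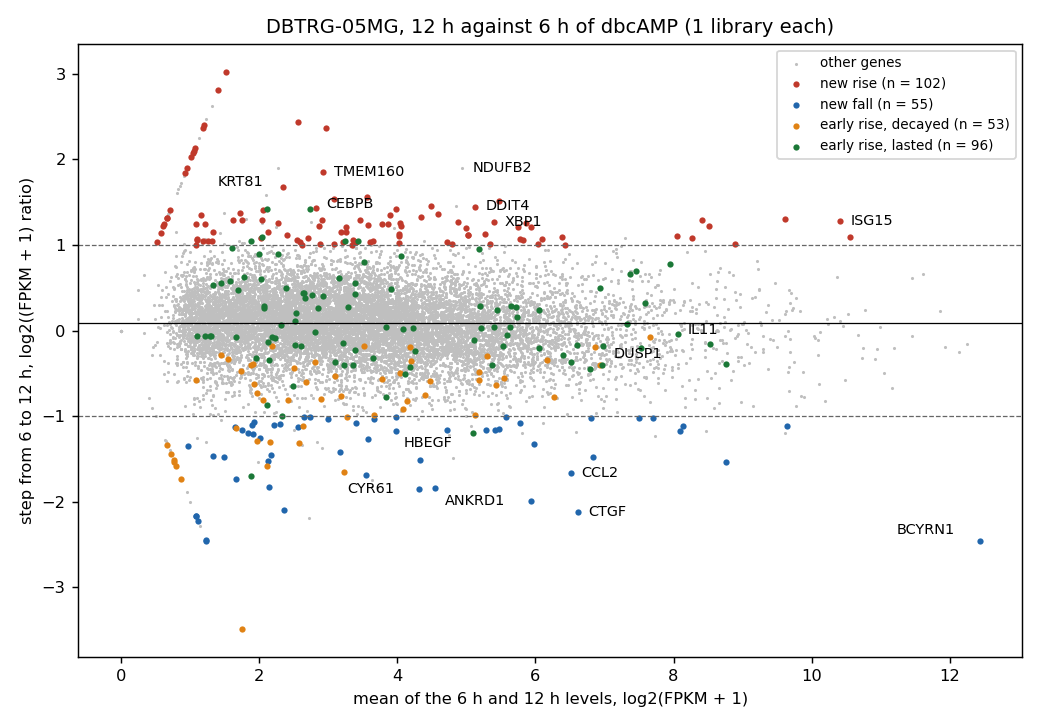
Each point is 1 of 12424 genes, with the mean of its 6 h and 12 h levels in log2(FPKM + 1) on the x axis and its step from 6 to 12 h in log2((FPKM + 1) ratio) on the y axis. Dashed lines mark 2-fold, the solid line marks the median of 0.09, and colours mark classes by timing. CTGF (-2.12) and ANKRD1 (-1.995) lie low while IL11 (-0.04) and DUSP1 (-0.18) lie near the median, and the slanted rays at the left are genes listed at 0 in 1 of the 2 libraries.

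The 2-fold calls held many short loci. Of genes with an annotated transcript length, 2.1% were under 500 bases, against 39.7% of those 2-fold higher and 39.4% of those 2-fold lower. In all, 36 of the higher and 19 of the lower genes were listed at 0 at 6 or 12 h. Among transcripts of at least 500 bases 88 genes were 2-fold higher and 57 lower, a restriction chosen after the data were seen. The step also varied with base composition. Its median fell from 0.24 for transcripts under 40% GC to -0.12 for those of 60% GC or more. In U87 the order was the opposite, from -0.19 to 0.12. A correction for length and GC, also chosen after the data were seen, left 109 of the 152 higher and 82 of the 99 lower genes past 2-fold. Only genes with an annotated length could be corrected, 146 of the 152 and 94 of the 99. The part of length and GC in single steps was not tested beyond that correction. Its values follow where they move a named gene across the 2-fold line and for several of the lists.

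**Figure D2:**
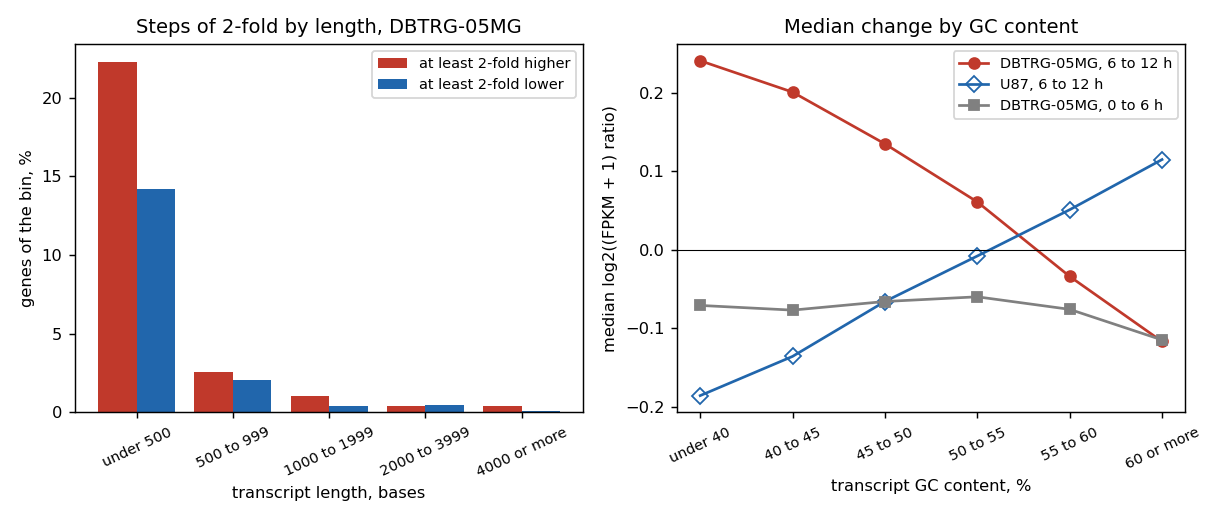
The left panel shows bars of the percentage of genes at least 2-fold higher or lower at 12 h than at 6 h in DBTRG-05MG, by transcript length in bases. The right panel shows the median change in log2((FPKM + 1) ratio) by transcript GC content for the 6 to 12 h step in both lines and for 0 to 6 h in DBTRG-05MG. Bars are tallest under 500 bases (22.3% higher and 14.2% lower), and the DBTRG-05MG and U87 lines cross.

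Genes were then sorted by timing. An early rise or fall was a change of at least 2-fold from 0 to 6 h, seen in 149 genes upward (1.2%) and 111 downward (0.893%). It lasted where 12 h was still at least 2-fold from 0 h in the same direction and decayed otherwise. A new rise or fall was a step of at least 2-fold after an early change below 0.5 on the log2 scale. By these rules 96 early rises lasted and 53 decayed, 54 early falls lasted and 57 decayed, and 102 genes were new rises and 55 new falls. Another 45 genes made a 2-fold step after an early change between those bounds. The 6 h library enters both the early change and the step, so the 2 are not independent. The total distance from 0 h grew over the step: 305 genes were 2-fold higher (2.45%) and 214 lower (1.72%) at 12 h than at 0 h. The next interval, from 12 to 24 h, held 133 genes higher (1.07%) and 92 lower (0.741%).

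**Figure D3:**
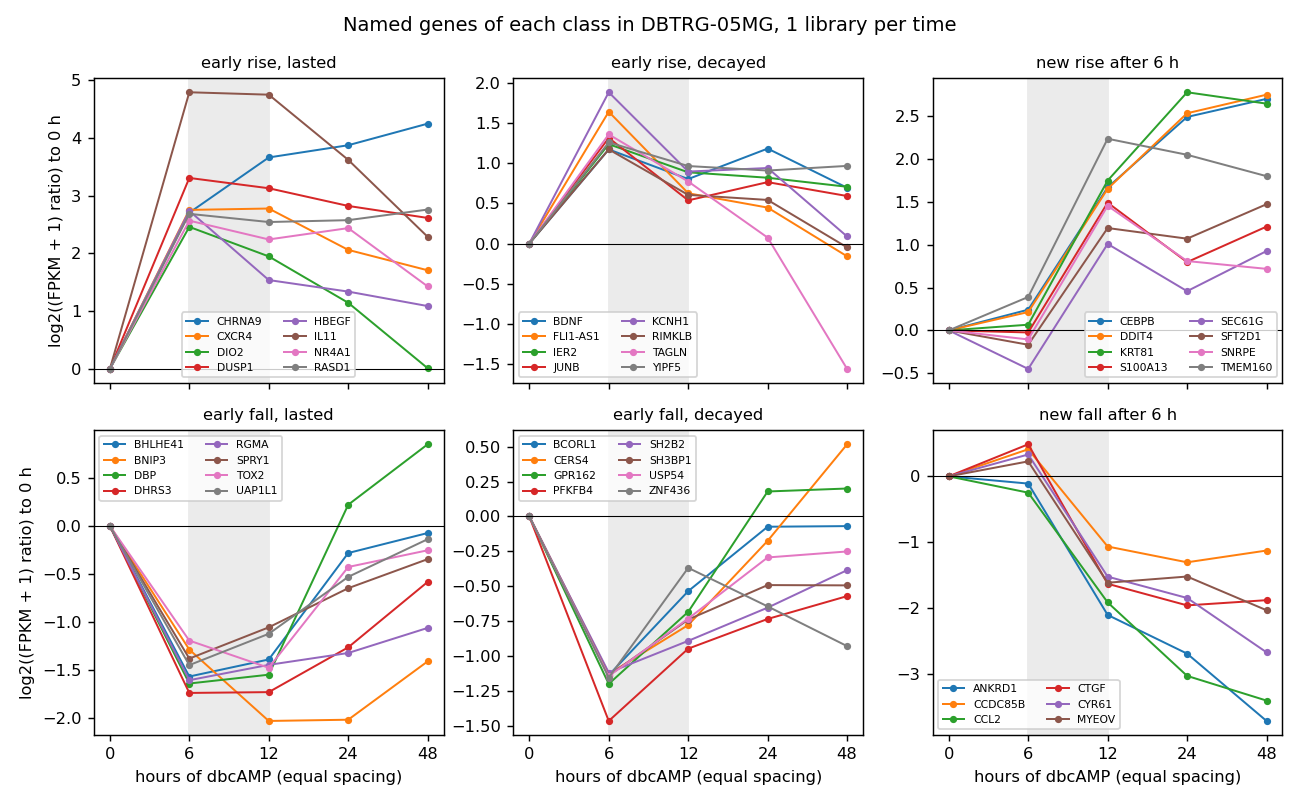
Each panel shows 1 class of genes in DBTRG-05MG, with hours of dbcAMP at equal spacing on the x axis and log2((FPKM + 1) ratio) to 0 h on the y axis, and each line is a named gene with 1 library per time. Grey bands mark the step from 6 to 12 h, and not every named gene is drawn. IL11 and DUSP1 stay high through 12 h, KCNH1 and FLI1-AS1 come back toward 0 h, and CCL2 and ANKRD1 leave the 0 h level only after 6 h.

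Early rises that lasted came first by size. IL11, a cytokine of the IL-6 family, was at 8.82, 269.9, 262.2, 119.4 and 46.9 FPKM at 0, 6, 12, 24 and 48 h, so its step was -0.04. DUSP1 was at 12.6, 133.2, 117.6, 94.9 and 82.1 FPKM in the same order, a step of -0.18. Both genes held at 12 h what they had gained by 6 h and declined later. IL6 was at 2.95, 19.9 and 14.6 FPKM at 0, 6 and 12 h. CXCR4, the receptor of the chemokine CXCL12, went from 1.74 to 17.5 and 17.8 FPKM at 6 and 12 h. RASD1, a small GTPase of the Ras family, went from 0.517 to 8.74 and 7.83 FPKM. For these 3 genes the step was -0.42, 0.02 and -0.14, small beside their early change.

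The starts of DUSP1 and IL11 are shown because both genes kept their early level. The 250 bases before each RefSeq start (GRCh38.p14) were searched on both strands. DUSP1 lies on the minus strand at chr5:172771196-172771445, where capitals mark the full cAMP response element TGACGTCA, 125 bases before the start. IL11 lies on the minus strand at chr19:55370464-55370713, where capitals mark the AP-1 site TGACTCA read on the other strand, 96 bases before the start.
DUSP1: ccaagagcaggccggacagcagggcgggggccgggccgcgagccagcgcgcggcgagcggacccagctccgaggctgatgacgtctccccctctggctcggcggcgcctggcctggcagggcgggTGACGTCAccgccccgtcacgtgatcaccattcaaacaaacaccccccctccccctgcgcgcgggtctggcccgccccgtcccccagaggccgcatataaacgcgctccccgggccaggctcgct
IL11: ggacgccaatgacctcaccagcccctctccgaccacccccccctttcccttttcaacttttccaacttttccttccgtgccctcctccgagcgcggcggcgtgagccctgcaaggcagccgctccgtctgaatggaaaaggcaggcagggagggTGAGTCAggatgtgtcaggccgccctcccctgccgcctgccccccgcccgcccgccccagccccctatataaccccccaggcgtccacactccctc
The full cAMP response element was in 3 of 60 promoters of early rises that lasted (5.0%) and in 291 of all 9752 promoters found (2.98%). The AP-1 site was in 5 of those 60 (8.33%) and in 2.54% of all. Other classes held both as well, so neither motif was particular to rises that lasted. The response element was in 1 of 31 promoters of early rises that decayed (3.23%) and 3 of 69 of new rises (4.35%). The AP-1 site was in 2 of those 31 (6.45%) and in 3 of 26 promoters of new falls (11.5%). These matches describe letters and do not show binding.

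Among the 96 lasting rises, 43 stepped back toward 0 h between 6 and 12 h, and their class as a whole was at a median of 1.47 at 6 h, 1.63 at 12 h, 1.66 at 24 h and 1.34 at 48 h above 0 h. HBEGF, a ligand of the EGF receptor, came back furthest of the protein-coding members: it was at 6.74, 50.5 and 21.5 FPKM at 0, 6 and 12 h, a step of -1.197. Its level at 12 h was still above 0 h by 1.54. DIO2, the deiodinase that activates thyroid hormone, was at 2.74, 19.5 and 13.4 FPKM (step -0.51) and was back at 2.77 FPKM by 48 h.

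Other lasting rises went further. CHRNA9, a nicotinic acetylcholine receptor subunit, was at 3.02, 25.2, 49.8, 57.8 and 75.2 FPKM at 0, 6, 12, 24 and 48 h, with a step of 0.96. Of the 6 lasting rises that gained at least 2-fold more, 4 were microRNA or small nucleolar RNA loci. The other two, named after their values were seen, were PDE3A, a phosphodiesterase that hydrolyses cAMP, and KYNU, the kynureninase of tryptophan breakdown. PDE3A was at 0.726, 5.61 and 12.6 FPKM at 0, 6 and 12 h. KYNU was at 2.07, 6.49 and 14.5 FPKM at those times. The phosphodiesterase genes PDE4B (2.05, 11.6 and 16.7 FPKM) and PDE4D (2.42, 7.87 and 9.72 FPKM) were also higher at 12 h than at 6 h, by 0.48 and 0.28. The PDE4D step was under the robust SD of 0.335 over all genes, and was 0.17 with the length and GC correction. PDE4A, named outside the rule, was at 4.86 and 4.38 FPKM at 6 and 12 h (step -0.12).

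The list of known cAMP and CREB targets had 47 members described. Of these, 20 were early rises, of which 14 lasted (70.0%, against 64.4% of all early rises) and 6 decayed. Between 6 and 12 h none of the 47 was 2-fold higher and 2 were 2-fold lower, PTHLH and FOSL1. The median step of the list was -0.18, and 37 members lay below the median of all genes. With the length and GC correction the median was -0.10. The NR4A orphan nuclear receptors split: NR4A1 was at 1.36, 13.0 and 10.1 FPKM at 0, 6 and 12 h, NR4A2 at 0.575, 2.80 and 3.64 FPKM, and NR4A3 at 0.125, 3.69 and 3.43 FPKM. Their steps were -0.33, 0.29 and -0.08, beside a robust SD of 0.335 over all genes. FOS, the AP-1 subunit, was at 1.62, 5.44 and 4.69 FPKM (step -0.18). CREM was at 2.05, 8.72 and 6.53 FPKM (step -0.37). PTHLH, which codes for parathyroid hormone-related protein, went from 41.4 to 83.4 FPKM at 6 h and was back at 35.8 FPKM at 12 h. KLF9, a zinc-finger transcription factor, moved the other way, from 4.31 to 8.30 and 16.7 FPKM.

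Among 27 components of the cAMP pathway itself none made a 2-fold step, and their median was 0.02. PRKACA, a catalytic subunit of protein kinase A, was at 86.9, 69.7 and 42.7 FPKM at 0, 6 and 12 h (step -0.69). PRKAR1A, a regulatory subunit that holds the kinase inactive, was at 30.8, 41.5 and 65.1 FPKM (step 0.64). The subunits had no common direction by type, since PRKACB, a catalytic subunit named outside the rule, had a step of 0.52 and PRKAR1B, a regulatory one, of -0.57.

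Early rises that decayed had a smaller early change. Their median was 1.17 above 0 h at 6 h and 0.56 at 12 h. The rule itself favours this, since a rise just past 2-fold counts as decayed after a small step back. CREM, which lasted, and BDNF, which decayed, both had a step of -0.37. Of the 53, 21 were within 0.5 of 0 h at 12 h and 15 stepped back by at least 2-fold, most of them small RNA loci. KCNH1, a voltage-gated potassium channel, was at 3.84, 16.9 and 8.01 FPKM at 0, 6 and 12 h (step -0.99). The antisense transcript FLI1-AS1 was at 3.39, 12.7 and 5.77 FPKM (step -1.01, and -0.88 with the length and GC correction), with strand of the counting not given in the sources used here. JUNB, an AP-1 subunit, was at 39.7, 100.2 and 58.0 FPKM (step -0.78). All 3 were still above 0 h at 12 h, by 0.54 to 0.90.

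TAGLN, the actin-binding protein transgelin, was at 9.56, 26.1, 17.0, 10.1 and 2.58 FPKM over the 5 times and so ended below 0 h. BDNF, a neurotrophin, was at 2.54, 6.97 and 5.17 FPKM at 0, 6 and 12 h, and 7.03 FPKM at 24 h. YIPF5, a protein of the Golgi membrane, was at 17.2, 42.5 and 34.5 FPKM and missed the rule for lasting narrowly, at 0.96 above 0 h. IER2, an immediate-early gene, was at 33.3, 79.8 and 62.4 FPKM (0.89 above 0 h). ANGPTL4, a secreted inhibitor of lipoprotein lipase, was at 6.99, 15.6, 4.26, 6.06 and 19.4 FPKM, so its 12 h level lay below 0 h and its 48 h level above.

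Early falls lasted in 48.6% of 111 genes. Members with a mean of at least 5 FPKM numbered 15 of the 54 that lasted and 17 of the 57 that decayed, and 27 and 20 members of the 2 classes had transcripts under 500 bases. Lasting falls included 2 genes of the circadian clock. DBP, a clock output factor, was at 34.2, 10.3, 11.0, 39.97 and 62.3 FPKM at 0, 6, 12, 24 and 48 h. BHLHE41, a repressor of the clock, was at 24.8, 7.72, 8.87, 20.2 and 23.5 FPKM. Both sat flat from 6 to 12 h (0.09 and 0.18) and were near or above the 0 h level by 24 h. DHRS3, a retinaldehyde reductase, was at 60.3, 17.4 and 17.5 FPKM at 0, 6 and 12 h. RGMA, a repulsive guidance molecule, was at 18.8, 5.49 and 6.25 FPKM. SPRY1, an inhibitor of receptor tyrosine kinase signalling, was at 14.6, 4.98 and 6.49 FPKM. BNIP3, a mitophagy receptor induced by hypoxia, differed from these in going further down, with 229.0, 93.3 and 55.4 FPKM (step -0.74).

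Early falls that decayed were at a median of -1.13 at 6 h and -0.70 at 12 h, and 19 of the 57 were within 0.5 of 0 h at 12 h. PFKFB4, an enzyme that sets the level of a glycolysis activator, was at 33.2, 11.4, 16.7, 19.6 and 22.03 FPKM over the 5 times. ZNF436, a zinc-finger protein, was at 15.9, 6.59 and 12.1 FPKM at 0, 6 and 12 h, the largest return of the named genes (step 0.79). The corepressor gene BCORL1 was at 9.09, 3.59 and 5.97 FPKM. CERS4, a ceramide synthase, was at 10.2, 4.11, 5.52, 8.91 and 15 FPKM, so its level passed that of 0 h by 48 h. Return over the step was partial in these genes, since each was still below 0 h at 12 h.

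Among protein-coding new falls averaging 5 FPKM or more, the largest were CTGF, ANKRD1 and CYR61, targets of YAP or TGF-beta. CTGF, a secreted matrix-associated protein now named CCN2 (chr6:131948176-131951373), was at 145.3, 204.1, 46.2, 36.6 and 38.8 FPKM at 0, 6, 12, 24 and 48 h, a step of -2.12. CYR61, its relative CCN1 (chr1:85580761-85583962), was at 29.1, 37.0, 9.49, 7.38 and 3.73 FPKM (step -1.85). ANKRD1, an ankyrin-repeat nuclear protein, was at 130.8, 121.1, 29.6, 19.4 and 9.04 FPKM (step -1.995). All 3 were within 0.5 of their 0 h level at 6 h on the log2 scale and lower at each of the 3 later times. CTGF met that bound narrowly, at 0.49 above 0 h at 6 h.

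The promoters of CTGF and ANKRD1 are shown because these genes had 2 of the largest falls and hold repeated TEAD motifs. Capitals mark GGAATG, 169, 104 and 95 bases before the start of CTGF (minus strand, chr6:131951373-131951622) and 220 and 128 bases before that of ANKRD1 (minus strand, chr10:90921088-90921337).
CTGF: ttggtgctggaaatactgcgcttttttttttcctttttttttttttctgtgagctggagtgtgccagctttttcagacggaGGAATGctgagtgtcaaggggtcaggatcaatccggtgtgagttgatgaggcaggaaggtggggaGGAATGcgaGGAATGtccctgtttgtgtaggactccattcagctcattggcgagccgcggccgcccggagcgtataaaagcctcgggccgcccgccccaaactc
ANKRD1: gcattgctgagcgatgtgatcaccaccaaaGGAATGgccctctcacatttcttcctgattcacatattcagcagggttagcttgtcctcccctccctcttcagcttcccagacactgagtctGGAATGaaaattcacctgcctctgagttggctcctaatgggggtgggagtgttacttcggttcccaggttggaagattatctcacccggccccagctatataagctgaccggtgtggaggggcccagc
Of the YAP and SRF targets with a promoter in the RefSeq table, 5 of 15 held GGAATG on either strand (33.3%), against 911 of 9752 promoters of all genes (9.34%). In new falls as a class the share was 2 of 26 (7.69%).

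The list of YAP and SRF targets, in which CTGF and CYR61 were not included, had 18 members described. Of these, 17 were lower at 12 h than at 6 h, 2 of them by at least 2-fold (ANKRD1 and SRF), and none was 2-fold higher. The median step was -0.46, and -0.37 with the length and GC correction, which took SRF to -0.86. SRF, the serum response factor, was at 17.8, 27.2 and 12.8 FPKM at 0, 6 and 12 h. AMOTL2, a YAP-binding angiomotin, was at 40.01, 46.0 and 23.3 FPKM. NUAK2, a kinase of the AMPK family, was at 28.7, 33.3 and 18.4 FPKM. The median of the list had been 0.24 above 0 h at 6 h and was -0.31 at 12 h. In the 26 TGF-beta targets, 3 were 2-fold lower, CTGF and CYR61 among them, and none 2-fold higher, with a median of -0.19. BAMBI, a decoy receptor of that pathway, was the highest, at 10.3, 6.94 and 13.9 FPKM (step 0.91).

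Chemokine and inflammatory cytokine genes were lower as well. CCL2, the monocyte chemoattractant (chr17:34255218-34257203), was at 192.2, 161.8, 50.3, 22.7 and 17.3 FPKM over the 5 times (step -1.67). IL1B, the cytokine interleukin-1 beta, was at 6.02, 5.79 and 2.16 FPKM at 0, 6 and 12 h (step -1.10). The neutrophil chemokines IL8 (276.5, 450.1 and 306.0 FPKM) and CXCL2 (29.3, 51.9 and 34.1 FPKM) went up to 6 h and back by 12 h. Of 15 members described, 14 were lower at 12 h than at 6 h, 2 by at least 2-fold, with a median of -0.42. With the length and GC correction the median was -0.52. IL11 and IL6 stand outside that list, and the 18 genes of the IL-6 family and its STAT3 feedback had a median of -0.04 with none past 2-fold.

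Of 28 growth factors and receptors, 3 were 2-fold lower (PDGFB, HBEGF and EGFR) and none 2-fold higher. PDGFB, a platelet-derived growth factor chain, was at 6.67, 4.73 and 1.475 FPKM at 0, 6 and 12 h (step -1.21). EGFR, the receptor to which HBEGF binds, was at 16.1, 21.5, 10.2, 8.75 and 6.56 FPKM over the 5 times. It lies next to the 2-fold line and was -0.95 with the length and GC correction. FOSL1, an AP-1 subunit, was at 443.9, 410.2, 181.7, 136.1 and 95.7 FPKM (step -1.17). MYEOV, a gene overexpressed in myeloma, was at 36.9, 43.4 and 11.4 FPKM at 0, 6 and 12 h (step -1.84). CCDC85B, a coiled-coil protein, was at 142.5, 189.8 and 67.5 FPKM (step -1.48).

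A pair of lower genes had made part of a 2-fold rise before the step. LBH, a transcription cofactor, was at 10.7, 21.8 and 5.79 FPKM at 0, 6 and 12 h (step -1.75). CLDN1, a tight-junction protein, was at 26.3, 45.9, 15.7, 36.1 and 20.7 FPKM over the 5 times (step -1.49). Its 12 h value is the lowest of the 5.

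BCYRN1 had the lowest step of the named genes. This short brain cytoplasmic RNA is made by RNA polymerase III and shares its sequence with many copies in the genome, so its value is uncertain. It was at 13862, 12954, 2361, 3522 and 5932 FPKM over the 5 times (step -2.46). It made up 3.1% of all FPKM at 6 h and 0.578% at 12 h. A total without BCYRN1 gave 149 genes 2-fold higher and 101 lower. HSPB1, a small heat shock protein, was at 1742, 1187 and 518.5 FPKM at 0, 6 and 12 h (step -1.19). RPS26, a ribosomal protein with many processed copies and so uncertain, was at 1038, 1182 and 543.5 FPKM (step -1.12).

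New rises after 6 h had a median step of 1.22 and were still at a median of 1.07 above 0 h at 24 h and 1.15 at 48 h. New falls were at -0.81 and -1.13 at those times. Genes of the integrated stress response, which ATF4 drives when translation initiation factor eIF2 is phosphorylated, stood among the new rises. DDIT4, an inhibitor of the growth kinase mTORC1 (chr10:72273920-72276036), was at 17.3, 20.2, 56.6, 105.1 and 122.2 FPKM (step 1.44). CEBPB, a bZIP factor that dimerises with ATF4 (chr20:50190734-50192689), was at 7.11, 8.59, 24.8, 44.6 and 51.8 FPKM (step 1.43). CHAC1, an enzyme that degrades glutathione, was at 9.18, 9.85, 24.2, 31.0 and 21.9 FPKM (step 1.22). Levels of all 3 were flat to 6 h and higher at every later time.

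DDIT3, the stress factor CHOP, was at 60.8, 45.5, 92.7, 226.1 and 262.5 FPKM. Its step was 1.01, with 0.98 after the length and GC correction and 0.90 with median centring. Of 33 members described, these 4 were 2-fold higher and none was 2-fold lower, 23 lay above the median of all genes, and the list median was 0.34. With the length and GC correction 3 were 2-fold higher and the median was 0.33. ATF4 itself, named here outside the rule, was at 210.9, 214.9 and 249.9 FPKM at 0, 6 and 12 h (step 0.22).

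Genes of the endoplasmic reticulum were also among the new rises. XBP1, the transcription factor of the IRE1 arm of the unfolded protein response, was at 22.8, 26.4, 64.7, 79.2 and 65.4 FPKM (step 1.26). CRELD2, a chaperone-like protein of the endoplasmic reticulum, was at 10.9, 8.43, 21.3, 16.5 and 16.1 FPKM (step 1.24). SDF2L1 and DNAJC3, cofactors of the chaperone BiP, had steps of 0.89 and 0.79, and the length and GC correction put SDF2L1 at 1.08. Of 22 members, 2 were 2-fold higher, none 2-fold lower and 17 above the median of all genes, with a list median of 0.33 (0.27 with the length and GC correction).

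The promoters of CHAC1, XBP1 and CRELD2 are shown because these new rises hold elements named for the 2 stress pathways. Capitals in CHAC1 (plus strand, chr15:40953221-40953470) mark the CEBP-ATF response element TGATGCAA read on the other strand, 209 bases before the start. Capitals in XBP1 (minus strand, chr22:28800570-28800819) and CRELD2 (plus strand, chr22:49918384-49918633) mark the endoplasmic reticulum stress element, CCAAT and CCACG with 9 bases between them, 52 and 80 bases before the start, in CRELD2 on the other strand.
CHAC1: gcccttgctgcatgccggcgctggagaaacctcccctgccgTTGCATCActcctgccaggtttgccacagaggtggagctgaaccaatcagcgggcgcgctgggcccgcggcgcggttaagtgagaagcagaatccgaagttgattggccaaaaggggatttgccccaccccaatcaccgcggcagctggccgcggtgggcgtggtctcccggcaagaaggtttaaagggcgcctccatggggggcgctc
XBP1: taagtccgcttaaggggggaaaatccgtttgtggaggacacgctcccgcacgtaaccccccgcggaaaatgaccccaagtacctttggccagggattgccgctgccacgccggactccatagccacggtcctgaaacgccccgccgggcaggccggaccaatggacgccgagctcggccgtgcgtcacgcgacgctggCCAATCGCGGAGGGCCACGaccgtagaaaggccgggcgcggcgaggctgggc
CRELD2: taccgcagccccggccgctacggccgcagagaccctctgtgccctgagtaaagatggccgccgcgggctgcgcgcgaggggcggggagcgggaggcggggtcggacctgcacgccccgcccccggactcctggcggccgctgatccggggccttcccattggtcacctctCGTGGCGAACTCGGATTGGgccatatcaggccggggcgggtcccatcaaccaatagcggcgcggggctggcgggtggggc
The stress element was in 6 of 21 promoters of the endoplasmic reticulum list (28.6%) and in 14 of all 9752 (0.14%). It was in 2 of 69 promoters of new rises (2.9%), those of XBP1 and CRELD2. TGATGCAA was in 2 of 24 promoters of the integrated stress response list (8.33%) and in 37 of all (0.38%). It was in 1 of 69 promoters of new rises (1.45%), that of CHAC1. The promoters of DDIT4, CEBPB and DDIT3 did not hold it.

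Interferon-stimulated genes were higher by small amounts. ISG15, a ubiquitin-like modifier, was at 1194, 874.9, 2122, 2058 and 2202 FPKM over the 5 times (step 1.28) and was the only member of 36 past 2-fold without the length and GC correction. HERC5, the ligase for ISG15, was at 19.6, 16.2 and 31.9 FPKM at 0, 6 and 12 h. CMPK2 and RSAD2, antiviral neighbours in the genome, had steps of 0.94 and 0.86, and that correction put CMPK2 at 1.06. In all 32 of the 36 lay above the median of all genes, none was 2-fold lower, and the list median was 0.34 with and without the length and GC correction.

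Several of the largest rises were genes for small subunits of larger complexes. NDUFB2, a subunit of respiratory complex I, was at 22.1, 14.9, 58.1, 38.1 and 49.3 FPKM (step 1.90). SEC61G, a subunit of the endoplasmic reticulum translocon, was at 17.4, 12.5, 36.1, 24.3 and 34.0 FPKM (step 1.46). SNRPE, a core protein of spliceosomal particles, was at 6.41, 5.89, 19.3, 12.0 and 11.2 FPKM (step 1.56). Each had its highest value at 12 h. Their annotated transcripts are short, at 521.5, 487.0 and 648.5 bases, and about 71, 55 and 35 fragments stood behind the 6 h values.

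Of 43 respiratory chain subunits, 5 were 2-fold higher and none 2-fold lower, 34 lay above the median of all genes, and the median was 0.35. COX7C, of cytochrome oxidase, was at 281.7, 239.2 and 557.7 FPKM at 0, 6 and 12 h (step 1.22). NDUFA1 and NDUFA4 had steps of 1.06 and 1.07 (NDUFA4 0.92 with the length and GC correction). The median transcript of that list was 842.0 bases long, against 2492 for all genes with a length. With the length and GC correction 2 subunits stayed past 2-fold and the median was 0.30. The 72 cytosolic ribosomal proteins had 6 members 2-fold higher and 1 lower (RPS26), with a median of 0.21. RPL39 was at 161.1, 217.3 and 533.7 FPKM (step 1.29) and RPS27A at 35.7, 36.6 and 88.7 FPKM (step 1.25). Such genes have processed copies, so reads may be split among them. By comparison, 24 of 25 genes of ribosome biogenesis and MYC lay below the median of all genes, none past 2-fold, with a median of -0.249 (-0.245 with the correction). PES1, a nucleolar protein, was at 43.8, 58.1 and 31.9 FPKM (step -0.84).

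Other large rises had no list in common. KRT81, a hair keratin, was at 1.71, 1.84, 8.11, 17.6 and 16.0 FPKM (step 1.68). LFNG, a glycosyltransferase that modifies Notch receptors, was at 3.14, 1.46, 6.39, 6.25 and 8.30 FPKM (step 1.58). TMEM160, a membrane protein, was at 2.06, 3.02, 13.4, 11.7 and 9.67 FPKM (step 1.85), with about 18 fragments at 6 h and 88 at 12 h. S100A13, a calcium-binding protein, was at 25.7, 25.2, 73.9, 45.3 and 60.7 FPKM (step 1.51). SFT2D1, a vesicle transport protein, was at 15.9, 14, 37.6, 34.4 and 45.8 FPKM (step 1.36). All 5 were above both earlier libraries at 12, 24 and 48 h. Of 18 heat shock genes, HSPE1, the mitochondrial co-chaperonin, was 2-fold higher (5.91, 3.34 and 9.46 FPKM, about 17 fragments at 6 h) and HSPB1 2-fold lower.

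Few cell division genes made a 2-fold step, though 48 of 56 G2 and mitosis genes were higher at 12 h than at 6 h. In the G2 and mitosis list 43 of 56 members lay above the median of all genes, NEK2 alone was 2-fold higher (7.68, 6.37 and 14.04 FPKM at 0, 6 and 12 h), and the list median was 0.30 (0.20 with the length and GC correction, which put NEK2 at 0.92). MAD2L1, of the spindle checkpoint, was at 16.2, 15.2, 30.6, 19.5 and 7.57 FPKM over the 5 times, highest at 12 h and lowest at 48 h. The proliferation marker MKI67 was at 79.9, 76.0, 69.4, 46.3 and 10.3 FPKM, so most of its decline came after 12 h. None of 55 G1/S and replication genes made a 2-fold step (median 0.10). The cell cycle inhibitor CDKN1A was at 293.3, 271.2 and 252.7 FPKM (step -0.10). GDF15, a stress cytokine, was at 359.5, 390.8, 390.5, 1153 and 2276 FPKM, flat over the step and higher after it. CCND1, the G1 cyclin D1, was at 388.8, 541.1 and 300.0 FPKM (step -0.85).

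No member made a 2-fold step in the lists for sterol synthesis and uptake (29 genes, median 0.27), NRF2 and iron (26, 0.31), glycolysis and hypoxia (36, -0.08), NF-kappaB targets (20, -0.08), p53 targets (25, 0.14), lysosome and autophagy (31, 0.08), collagens and matrix (25, -0.02), circadian clock (13, 0.08), histone cluster genes (16, -0.02), CDK inhibitors and D cyclins (12, -0.04) or TXNIP and glucose sensing (8, 0.14). With the length and GC correction CDKN2D, a CDK inhibitor, passed 2-fold (0.93 without it and 1.09 with it). In these lists, AKR1C1, an aldo-keto reductase under NRF2, was at 26.2, 20.0, 32.7, 77.6 and 141.6 FPKM over the 5 times. ICAM1, an adhesion molecule under NF-kappaB, was at 32.8, 20.5 and 10.9 FPKM at 0, 6 and 12 h. TXNIP, a glucose-sensing arrestin, was at 111.7, 59.7 and 70.9 FPKM.

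**Figure D4:**
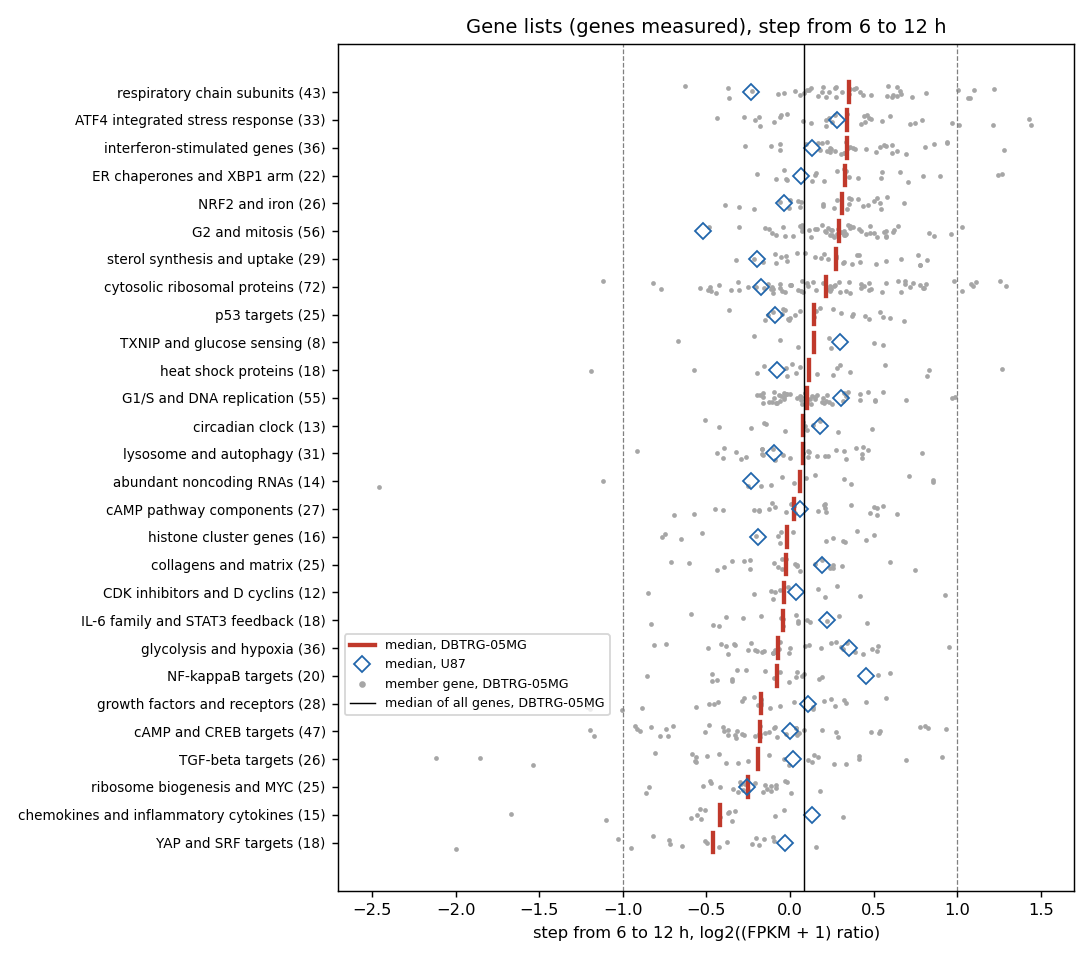
Each row is a gene list with the number of genes described, each grey point is the step of 1 member from 6 to 12 h in DBTRG-05MG in log2((FPKM + 1) ratio), red bars are list medians in DBTRG-05MG and open diamonds are list medians in U87. The black line is the median of all genes in DBTRG-05MG (0.09) and dashed lines are 2-fold. YAP and SRF targets (-0.46) and chemokines (-0.42) lie lowest, and respiratory chain subunits (0.35) and the integrated stress response (0.34) highest.

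Markers were read only to check the labels. The glioma line markers VIM (2072, 2170 and 1726 FPKM at 0, 6 and 12 h) and SOX2 (36.6, 29.5 and 23.9 FPKM) were present. Of 10 blood and vessel cell markers, 9 lay under 1 FPKM at both 6 and 12 h, but CD68 was at 81.4 and 62.4 FPKM. Also under 1 FPKM at both times were 6 of 10 astrocyte, 7 of 10 oligodendrocyte and only 2 of 9 neuron markers. Among the neuron markers, GAP43 was at 26.5 and 22.8 FPKM at those times. The approximate depth of the DBTRG-05MG libraries ran from 8.87 to 9.88 M fragments, the latter at 12 h.

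The same step in U87 shares no library with that in DBTRG-05MG. In U87, 96 of the 12424 genes were 2-fold higher (0.773%) and 91 lower (0.732%). Across genes, which are not independent replicates, the steps of the 2 lines had a Pearson r of -0.12. The steps varied with GC content in opposite directions in the 2 lines, and the part of GC in this value was not tested. Of the 152 genes 2-fold higher in DBTRG-05MG, 8 were 2-fold higher and 14 lower in U87. Of the 99 lower, 12 were 2-fold lower and 6 higher. Leaving aside microRNA and other small RNA loci, genes 2-fold lower in both lines were CTGF and the chemokine CCL3, and none was 2-fold higher in both. CTGF was at 16.1, 71.2 and 29.5 FPKM in U87 at 0, 6 and 12 h (step -1.24), while CCL3, named after its values were seen, was at 3.17 and 0.509 FPKM in DBTRG-05MG and 16.7 and 7.20 FPKM in U87 at 6 and 12 h. Outside small RNA loci, 2 genes made 2-fold steps in opposite directions, C10orf114 and PDK4, an inhibitory kinase of pyruvate dehydrogenase, both named after their values were seen. PDK4 was at 0.682 and 2.74 FPKM in DBTRG-05MG and 3.31 and 1.02 FPKM in U87.

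CYR61 was lower in U87 by less (53.9 and 35.4 FPKM at 6 and 12 h, step -0.59). DDIT4 (0.76) and CEBPB (0.82) were higher in U87 too, though under 2-fold. The list medians in U87 were -0.03 for YAP and SRF targets and 0.13 for chemokines, whose leading members ANKRD1 and CCL2 were under 1 FPKM there at both times. Relative to the median of all genes, 23 of 33 lists lay on opposite sides in the 2 lines. Lists on the same side included the integrated stress response (0.26 in DBTRG-05MG and 0.31 in U87). Interferon-stimulated genes (0.25 and 0.16) and ribosome biogenesis and MYC (-0.33 and -0.22) were others. IL11 was at 187.1 and 337.2 FPKM in U87 at 6 and 12 h (step 0.85), and DIO2 at 154.7 and 51.7 FPKM (step -1.56). DUSP1 was at 116.5 and 201.3 FPKM (step 0.78). These 3 lasting rises of DBTRG-05MG therefore had other steps in U87, a difference that was not tested. Early genes chosen in U87, a choice that does not use the 6 h library of DBTRG-05MG, gave another view. Of 289 early rises of U87, 52 were 2-fold above and 13 2-fold below 0 h at 12 h in DBTRG-05MG. The median DBTRG-05MG step of the 289 was -0.01. Of 275 early falls of U87, 23 were 2-fold below and 7 2-fold above 0 h at 12 h in DBTRG-05MG. The median DBTRG-05MG step of the 275 was -0.001, near that of the rises. Over all 12424 genes, 305 were 2-fold above (2.45%) and 214 below (1.72%).

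**Figure D5:**
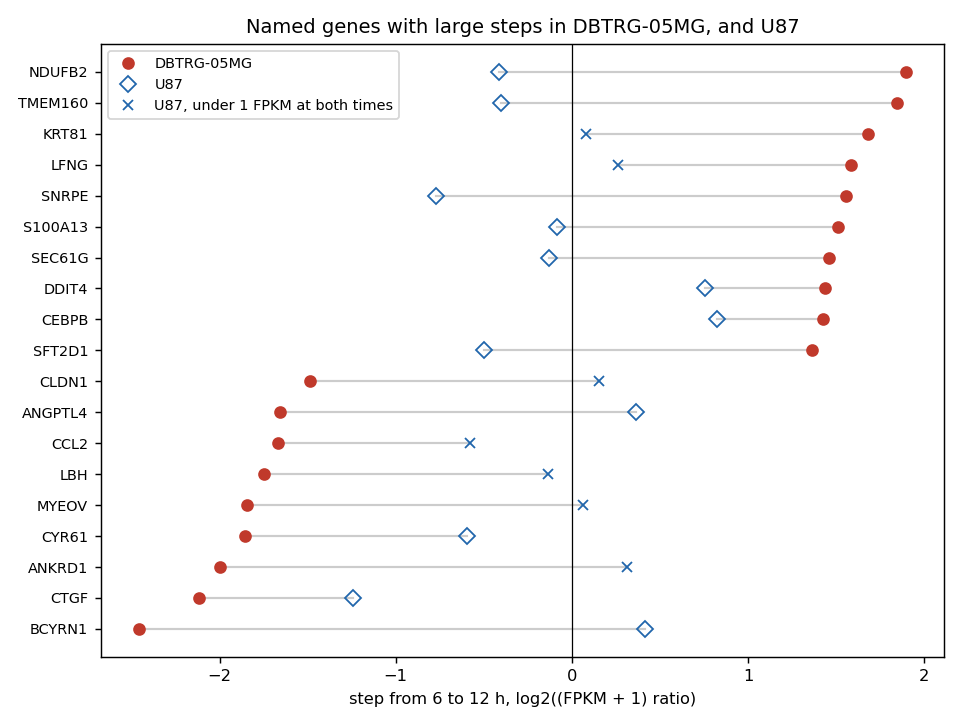
Points give the step from 6 to 12 h in log2((FPKM + 1) ratio) for named genes with the largest rises and falls in DBTRG-05MG (filled circles), with the same gene in U87 (open diamonds, or crosses where U87 lay under 1 FPKM at both times). CTGF and CYR61 are lower and DDIT4 and CEBPB higher in both lines, while NDUFB2 and SNRPE lie on opposite sides of 0.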

How the data were processed

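Levels were read from the authors' deposited table of FPKM values, 1 column per library. The labels do not name the unit; it was inferred from the values. HISAT, Bowtie2, RSEM and hg38 are named in the submitters' processing notes, without versions. A value of 0.002 was read as 0. No library is replicated, so sizes were described with no test. Changes are log2((FPKM + 1) ratio) over genes averaging 1 FPKM or more in DBTRG-05MG. Depth, approximate, was estimated from the size of 1 fragment at low levels, and no counting interval was given. Transcript length, GC content and gene positions came from GENCODE release 29 (97.5% of genes matched), and promoters from RefSeq on GRCh38.p14.

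Named genes were those with a mean of at least 5 FPKM outside small RNA, date-like and uncharacterised symbols: the 10 largest steps each way, the 8 largest changes in each of 6 classes, up to 4 members of each of 33 lists with the largest steps (these from 1 FPKM), and a fixed set. Some genes that the rule names are left out here. The members and lists were chosen with earlier results of these data known. The sorting into classes was tested on simulated data. Alternatives were the pseudocount, the filter, the scaling, a 3-fold threshold, early genes chosen in U87 and, added after seeing the data, a length minimum and a correction for length and GC. Python 3.11.15 with numpy 2.4.6, pandas 2.3.3 and matplotlib 3.10.9 was used.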

Additional observations from a re-analysis of the deposited data

Results flagged for a closer look

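The median step from 6 to 12 h, taken relative to the median of all genes, lay on opposite sides in the 2 lines in 23 of 33 gene lists, and in 2 of these by at least 0.2 in each line. For G2 and mitosis genes it was 0.21 in DBTRG-05MG and -0.49 in U87, and with the length and GC correction 0.12 and -0.43. For respiratory chain subunits it was 0.265 in DBTRG-05MG and -0.20 in U87, and with that correction 0.22 and -0.085. With 1 library for each line and time the difference was not tested. The median GC content of the mitosis list was 44.2%, below the 49.5% of all genes, and the step varied with GC in opposite directions in the 2 lines. Lists that missed that bar in DBTRG-05MG or U87 include NF-kappaB targets (-0.16 and 0.49 in DBTRG-05MG and U87), glycolysis and hypoxia (-0.16 and 0.38) and chemokines (-0.51 and 0.16).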

How the results depend on the processing

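No paired analysis was possible because each line and time is 1 library and no result comes from a test. The order of values is genes 2-fold higher, 2-fold lower, early rises that lasted and decayed, early falls that lasted and decayed, new rises, and new falls. With a pseudocount of 0.1 they were 338, 176, 157, 75, 118, 193, 160 and 88. With a mean of at least 5 FPKM they were 78, 50, 59, 27, 15, 17, 66 and 33. At 3-fold they were 26, 25, 29, 17, 12, 17, 14 and 15. In transcripts of at least 500 bases they were 88, 57, 71, 37, 26, 30, 72 and 34. With no filter, genes 2-fold higher were 247, early rises that decayed 98, early falls that lasted 90 and new rises 181. With median centring, early falls that decayed were 36 and new rises 66. For early genes chosen in U87, 52 of the rises were 2-fold above 0 h at 12 h in DBTRG-05MG and 237 were not, and 23 of the falls were 2-fold below and 252 were not. Their median early change in DBTRG-05MG was 0.27 and -0.32, so those that were not had in part never changed there. Upper quartile scaling, a total without BCYRN1 and the length and GC correction kept all 8 counts within 1.5 times. In that correction 90, 43, 43, 42, 70 and 39 genes had the class they had without it, in the order above from early rises that lasted. Members with a length, the only ones it covers, numbered 94, 50, 53, 50, 98 and 51 in that order. Of 179 named genes, 4 moved by more than 0.335 on the log2 scale with a pseudocount of 0.1, and no step of at least 2-fold changed sign under the alternatives run. Small values did change sign, in 8 named genes and 10 list medians, none over 0.142 in size. With the length and GC correction IL11 went from -0.04 to 0.11, RASD1 from -0.14 to 0.05 and CXCR4 from 0.02 to -0.068. The depth limits short and low transcripts most, since a few fragments there make 2-fold.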
